A study of Mus musculus with 8 samples.

Results

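The glucose-sensing genes described here are the glucose transporter gene Slc2a2, the transcription factor genes Mlxipl, Mlxip and Mlx, and the glucose-responsive genes Txnip, Arrdc4 and Pklr. They were chosen by name for their place in one pathway, with no threshold on their values, and all 7 were found among the 13725 genes of the deposited table. The RNA came from pancreatic islets of female NOD mice aged 10 weeks, an inbred strain that develops autoimmune diabetes. There were 4 libraries from mice given PAHSA, which the sample labels spell PASHA, and 4 from mice given vehicle. PAHSAs are signalling lipids in which palmitic acid is esterified to a hydroxy stearic acid. All 8 libraries share the strain, sex, age and tissue, and no label gives the dose, route or length of treatment. The protocol speaks of islets pooled from 2 mice per set, and the design text of 4 mice per group, so a library may stand for 1 mouse or for a pool. Nothing else marks the libraries as separate treatments or isolations, so p-values measure the spread between libraries. The study's title concerns beta cells under metabolic stress, and the comparison asks how the treatment relates to islet gene expression.

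In mouse beta cells glucose enters mainly through GLUT2, the product of Slc2a2, and is phosphorylated and metabolised. Sugar phosphates activate ChREBP, the product of Mlxipl, and its relative MondoA, the product of Mlxip. Both act as dimers with MLX, the product of Mlx, on a carbohydrate response element made of a pair of E-box-like sites separated by 5 bases. Among the known targets are Txnip, whose product binds thioredoxin and restrains glucose uptake, its paralogue Arrdc4, another alpha-arrestin, and Pklr, the pyruvate kinase of liver and red cells, which beta cells also express. In beta cells high glucose induces Txnip, and excess of its product promotes cell death.

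Promoters that hold the paired element, or a single E box like those it is built from, are shown to set the members' sequences side by side. The motifs searched, on both strands, were the E box CACGTG and a pair of degenerate sites, CNCGNG and again CNCGNG with any 5 bases between them, in which each site can also be a CACGTG. RefSeq gave 9 windows for the 7 genes, each running from 250 bases before to 50 bases after a start (GRCm38.p6). CACGTG was found in 3 of these windows and the pair in 2, against 7.15% and 1.39% of all 32851 windows in the table. The 200 bases before the start are given 5′ to 3′ on the gene's strand, with the matched motif in capitals.
Txnip: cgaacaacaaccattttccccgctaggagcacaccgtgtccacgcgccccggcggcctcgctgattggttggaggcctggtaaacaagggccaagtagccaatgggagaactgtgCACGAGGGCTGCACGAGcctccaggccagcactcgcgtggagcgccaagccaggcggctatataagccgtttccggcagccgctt
Pklr, downstream start: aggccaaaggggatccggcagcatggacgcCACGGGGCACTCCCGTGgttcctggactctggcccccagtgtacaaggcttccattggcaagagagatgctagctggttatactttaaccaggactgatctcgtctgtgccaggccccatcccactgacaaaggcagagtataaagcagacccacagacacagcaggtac
Arrdc4: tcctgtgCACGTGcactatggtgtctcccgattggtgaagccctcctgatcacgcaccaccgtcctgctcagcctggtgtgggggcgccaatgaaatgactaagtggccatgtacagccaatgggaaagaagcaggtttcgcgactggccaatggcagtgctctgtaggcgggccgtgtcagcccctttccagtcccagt
Mlx: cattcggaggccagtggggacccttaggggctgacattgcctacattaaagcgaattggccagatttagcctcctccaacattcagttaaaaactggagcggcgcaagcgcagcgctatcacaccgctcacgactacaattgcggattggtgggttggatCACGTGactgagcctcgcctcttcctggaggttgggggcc
Mlxipl, upstream start: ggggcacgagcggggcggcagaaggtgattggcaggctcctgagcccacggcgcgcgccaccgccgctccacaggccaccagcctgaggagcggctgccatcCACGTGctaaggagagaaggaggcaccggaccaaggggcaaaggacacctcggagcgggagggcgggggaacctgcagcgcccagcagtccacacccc
In Txnip (chr3:96557757-96557956, plus strand) the pair lies from -85 to -69, where -1 is the base before the start. In Pklr (chr3:89136423-89136622, plus strand) it lies from -170 to -154 before the downstream of its 2 starts, which are 481 bases apart. The downstream start gives the liver-type enzyme and the upstream one the red-cell type. The single CACGTG lies from -193 to -188 in Arrdc4 (chr7:68749239-68749438, minus strand) and from -40 to -35 in Mlx (chr11:101087090-101087289, plus strand). In Mlxipl (chr5:135089690-135089889, plus strand) it lies from -98 to -93 at the upstream of 2 starts, which are 17001 bases apart. In mouse the upstream start of Mlxipl gives the shorter isoform ChREBP-β, which is itself a ChREBP target, and the downstream start ChREBP-α. The deposited values are sums per gene and separate neither the isoforms of Mlxipl nor those of Pklr. Neither motif was found in the windows of Slc2a2, Mlxip, the downstream start of Mlxipl or the upstream start of Pklr.

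The deposited values are log2 CPM, that is counts scaled to a common effective library size on the log2 scale. Estimated counts recovered from the lowest value of each library came to 35356278 to 39359123 in PAHSA libraries and 34461742 to 45236238 in vehicle libraries. Each of the 7 genes passed the filter on low values, a mean log2 CPM above 0, and none was at the lowest value in any library. The islet label was checked against markers of the cell types that an islet preparation can hold. Percentages of CPM are of the nominal total, and each library's own total ran from 965680 (PAHSA replicate 1) to 1069261 (vehicle replicate 4). The 9 beta cell markers summed to 14.1% to 17.6% of CPM in PAHSA libraries and 13.7% to 18% in vehicle libraries, and the 7 alpha cell markers to 6.70% to 8.12% and 6.11% to 7.0%. The 15 acinar markers in the table summed to 0.0359% to 1.47% of CPM in PAHSA libraries and 0.965% to 3.97% in vehicle libraries. All 14 tested acinar markers were lower in PAHSA on average, 12 of them at an unadjusted p under 0.05 in limma, a level at which 4.29% of all tested genes were lower. Of the tested duct markers 6 of 7 were lower on average, 4 of them at that level, with a median difference of -0.734. For stellate cells and fibroblasts it was 8 of 9, with 1 at that level and a median of -0.935, and for immune cells 4 of 4, with 0 and a median of -0.522. Of the 9 beta cell markers 7 were higher in PAHSA, with a median of 0.225. Of these, 2 passed the same unadjusted level, at which 3.02% of all tested genes were higher. All 3 tested endothelial markers and all 3 delta and PP cell markers were lower on average, with 0 at that level. Of the alpha cell markers 5 of 7 were higher, also with 0. Markers of a list were measured in the same 8 libraries, so these counts are not independent. An exact permutation test of the summed markers over 70 assignments of libraries gave p = 0.114 for acinar and 0.0571 for duct cells. Its smallest possible p was 0.0286, and no list passed after adjustment (smallest adjusted p = 0.343). Values with the acinar or beta cell mean as a covariate are given beside the genes, and the part of the other cell types in them was not tested. Slc2a2, Mlxipl and Pklr are also liver genes, and of 5 hepatocyte markers only Ttr, which alpha cells also express, and Fgb were in the table, at a sum of 0.0542% to 0.0657% in PAHSA and 0.0482% to 0.0644% in vehicle. In bulk islets fewer cells of a type and less RNA per cell cannot be told apart.

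Slc2a2 had the highest average difference of the 7 genes, at 1.56-fold the vehicle level in PAHSA islets, and Mlxipl followed at 1.43-fold. Txnip, Mlxip and Mlx averaged nearly the same in both groups, between 0.928-fold and 0.977-fold. Arrdc4 and Pklr averaged 1.17-fold and 1.36-fold, with large spreads inside each group. None of the 7 differences passed an adjusted p of 0.05 in limma over all 12231 genes tested, and 0% of all genes passed. The smallest adjusted p over all genes was 0.671. At an unadjusted p under 0.05, 1 of the 7 genes, Slc2a2, was higher and 0 lower, where 3.02% of all tested genes were higher and 4.29% lower. The PAHSA and vehicle libraries overlapped in all 7 genes, and 4.01% of tested genes had groups that did not overlap. Of the 7 genes 4 were higher and 3 lower, and 49.1% of all tested genes were higher. The median difference of the 7 genes was 0.232 log2, which is the value of Arrdc4 (SE 0.41), against -0.006 over all genes tested.

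Slc2a2 (ENSMUSG00000027690, chr3:28697903-28731359 in GRCm38) was at 189, 83.8, 140 and 183 CPM in PAHSA replicates 1, 2, 3 and 4, against 104, 72.9, 69.7 and 130 CPM in vehicle replicates 1, 3, 4 and 5. In 3 PAHSA libraries it was above every vehicle library, while PAHSA replicate 2 lay inside the vehicle range. On the log2 scale the means were 7.15 ± 0.54 in PAHSA and 6.51 ± 0.43 in vehicle (SD, n = 4 each). The difference was 0.64 (SE 0.27, 95% confidence interval 0.03 to 1.25; limma unadjusted p = 0.0401, adjusted p = 0.671). When 1 library was left out the difference was 0.50 to 0.89, highest without PAHSA replicate 2. Over the libraries numbered 1, 3 and 4 it was 1.06. That fit leaves out PAHSA replicate 2 and vehicle replicate 5, the lowest PAHSA and the highest vehicle library for Slc2a2. Slc2a2 tended to be high where acinar markers were low (Pearson r = -0.70 over 8 libraries, exact permutation p = 0.0305, adjusted 0.213 over the 14 relations of the 7 genes with the acinar and beta cell sums). The rank correlation with the acinar sum was -0.81 (exact permutation p = 0.0218, adjusted 0.258). Without the 2 libraries farthest from the median acinar sum r was -0.47, and centred on the group means it was -0.54. The Slc2a2 difference was 0.27 (SE 0.30) when the acinar mean was a covariate, and the part of acinar RNA in it was otherwise not tested. With the beta cell sum its r was -0.30 and its rho -0.07 (exact permutation p = 0.455 and 0.882, adjusted 0.579 and 0.935). Without the 2 libraries farthest from the median beta cell sum this r was 0.62, and centred on the group means it was -0.64. With the mean of 6 beta cell genes as a covariate the Slc2a2 difference was 0.84 (SE 0.41).

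Mlxipl (ENSMUSG00000005373, chr5:135089890-135138382) encodes ChREBP, the glucose-activated partner of MLX. It was at 33.0, 26.9, 16.6 and 27.6 CPM in PAHSA replicates 1, 2, 3 and 4, against 20.2, 14.6, 13.9 and 23.8 CPM in vehicle replicates 1, 3, 4 and 5. As with Slc2a2, 3 PAHSA libraries were above all vehicle libraries, but here the low one was PAHSA replicate 3. The log2 difference was 0.51 (SE 0.27, 95% confidence interval -0.08 to 1.11; limma adjusted p = 0.715), with means of 4.66 ± 0.42 in PAHSA and 4.14 ± 0.37 in vehicle (SD, n = 4 each). The interval covers folds from 0.943 to 2.16. With the beta cell mean as a covariate the difference was 0.24 (SE 0.40), and with the acinar mean 0.37 (SE 0.35).

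Mlxip and Mlx, the other 2 transcription factor genes, differed least between libraries together with Txnip. Mlxip (ENSMUSG00000038342, chr5:123394798-123457932), which encodes MondoA, was at 43.6, 36.0, 33.4 and 48.9 CPM in PAHSA replicates 1 to 4 and 51.9, 47.6, 36.3 and 38.5 CPM in vehicle replicates 1, 3, 4 and 5. Its log2 difference was -0.11 (SE 0.18), with a 95% confidence interval from -0.51 to 0.29. It was -0.39 (SE 0.19) with the acinar mean as a covariate, 0.09 with the beta cell mean, and -0.20 to -0.02 when 1 library was left out. Mlx (ENSMUSG00000017801, chr11:101087277-101092207), the shared dimer partner, was at 67.8, 79.1, 84.0 and 65.9 CPM in PAHSA replicates 1 to 4 and 79.6, 62.6, 79.3 and 82.4 CPM in vehicle replicates 1, 3, 4 and 5. No library exceeded another by more than 1.34-fold for Mlx or 1.55-fold for Mlxip. The Mlx difference was -0.03 (SE 0.14, 95% confidence interval -0.34 to 0.27), so a fold below 0.791 or above 1.21 lies outside the interval. Mlx overlaps Psmc3ip on the opposite strand. The library kit does not mark strand, so reads from the overlap cannot be told apart by strand. Psmc3ip differed by 0.20 (SE 0.28). Slc2a2, Mlxipl, Mlxip and Txnip overlap annotated antisense genes that have no deposited values, and Arrdc4 overlaps no annotated gene.

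Txnip (ENSMUSG00000038393, chr3:96557957-96561883), the thioredoxin-interacting protein gene, was at 55.8, 39.0, 47.7 and 49.6 CPM in PAHSA replicates 1, 2, 3 and 4. In vehicle replicates 1, 3, 4 and 5 it was at 52.7, 39.3, 55.1 and 52.1 CPM. In each group 1 library was low, PAHSA replicate 2 and vehicle replicate 3, and the other 6 lay between 47.7 and 55.8 CPM. The log2 means were 5.57 ± 0.22 for PAHSA and 5.63 ± 0.22 for vehicle (SD, n = 4 each). The difference was -0.05 (SE 0.17, 95% confidence interval -0.42 to 0.32; limma adjusted p = 0.964), and folds below 0.748 or above 1.24 lie outside the interval. Its sign turned in 4 of 19 alternatives, among them the fit over the libraries numbered 1, 3 and 4.

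Arrdc4 (ENSMUSG00000042659, chr7:68736995-68749241), an alpha-arrestin gene that glucose also induces, varied more. It was at 31.1, 15.9, 31.3 and 36.6 CPM in PAHSA replicates 1, 2, 3 and 4, against 39.6, 26.8, 10.1 and 27.9 CPM in vehicle replicates 1, 3, 4 and 5. The lowest and the highest library, vehicle replicates 4 and 1, were both vehicle libraries and lay 3.92-fold apart. The difference was 0.23 (SE 0.41, 95% confidence interval -0.67 to 1.13), and without vehicle replicate 4 it was -0.17 (SE 0.30). With the beta cell mean as a covariate it was 1.03 and with the acinar mean -0.36. Vehicle replicate 4 had the highest beta cell sum, 18% of nominal CPM, and the highest acinar sum, 3.97%. It also had the highest CPM total, 1069261. As a share of each library's own total, its beta cell sum was below that of PAHSA replicate 2. The correlation of Arrdc4 with the beta cell sum was -0.80 (exact permutation p = 0.0165, adjusted 0.213; rho = -0.40, exact permutation p = 0.327). This r was 0.06 without the 2 libraries farthest from the median beta cell sum and -0.92 on values centred on the group means. With the acinar sum the r of Arrdc4 was -0.61 and its rho -0.76 (exact permutation p = 0.127 and 0.0368, adjusted 0.31 and 0.258). That r was -0.36 without the 2 libraries farthest from the median acinar sum and -0.62 on centred values.

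Pklr (ENSMUSG00000041237, chr3:89136142-89146784) had the widest range. It was at 17.6, 12.6, 5.11 and 14.4 CPM in PAHSA replicates 1, 2, 3 and 4, against 20.7, 8.52, 3.61 and 7.47 CPM in vehicle replicates 1, 3, 4 and 5. The highest library was vehicle replicate 1 and the lowest vehicle replicate 4, 5.75-fold apart, with PAHSA replicate 3 second lowest. The difference was 0.45 (SE 0.55, 95% confidence interval -0.76 to 1.65; limma adjusted p = 0.889). It was 0.89 without vehicle replicate 1 and 0.04 without vehicle replicate 4, and -0.16 with the acinar mean as a covariate. Pklr overlaps Hcn3 on the opposite strand, which was at 3.68 to 4.82 log2 CPM, against 1.85 to 4.37 for Pklr, and differed by 0.17 (SE 0.27).

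**Figure D1:**
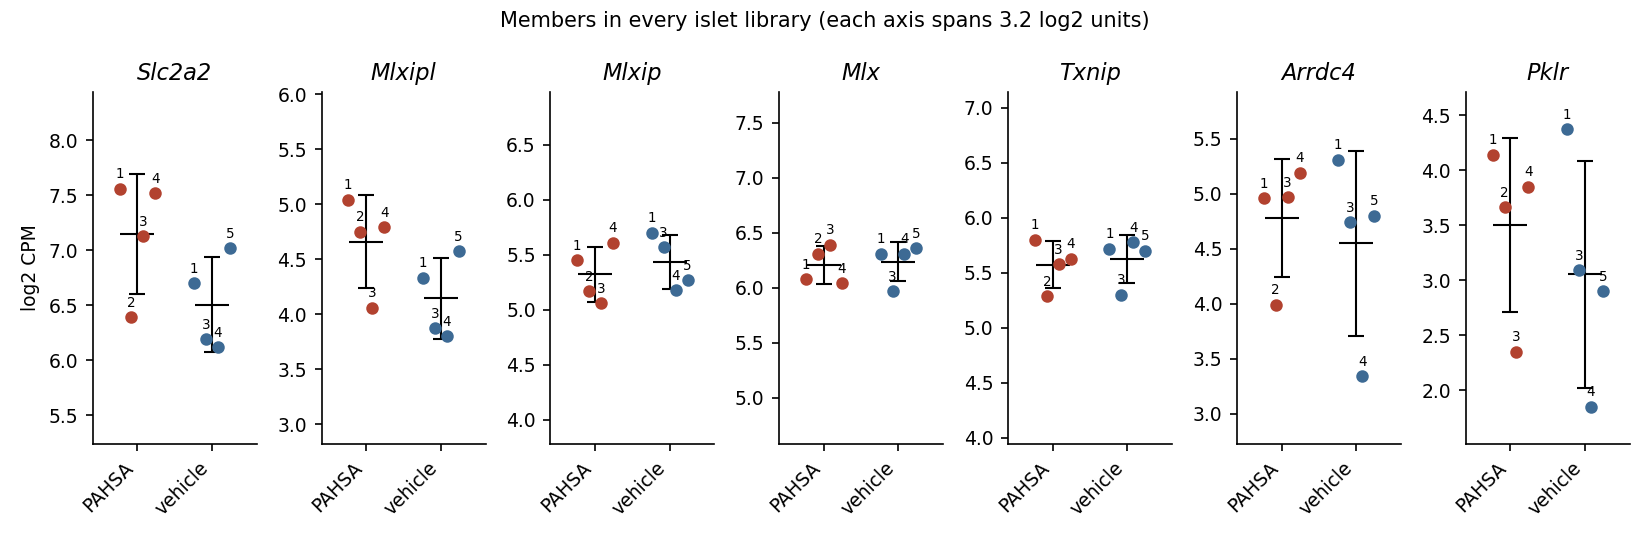
Level of each of the 7 genes in log2 CPM in the 4 PAHSA (red) and 4 vehicle (blue) islet libraries, with the replicate number beside each point and the mean ± SD as bars; all axes span the same number of log2 units. The groups overlap in all 7 genes, Mlxip, Mlx and Txnip are tightly clustered, and Arrdc4 and Pklr are spread over 1.97 and 2.52 log2 units.

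**Figure D2:**
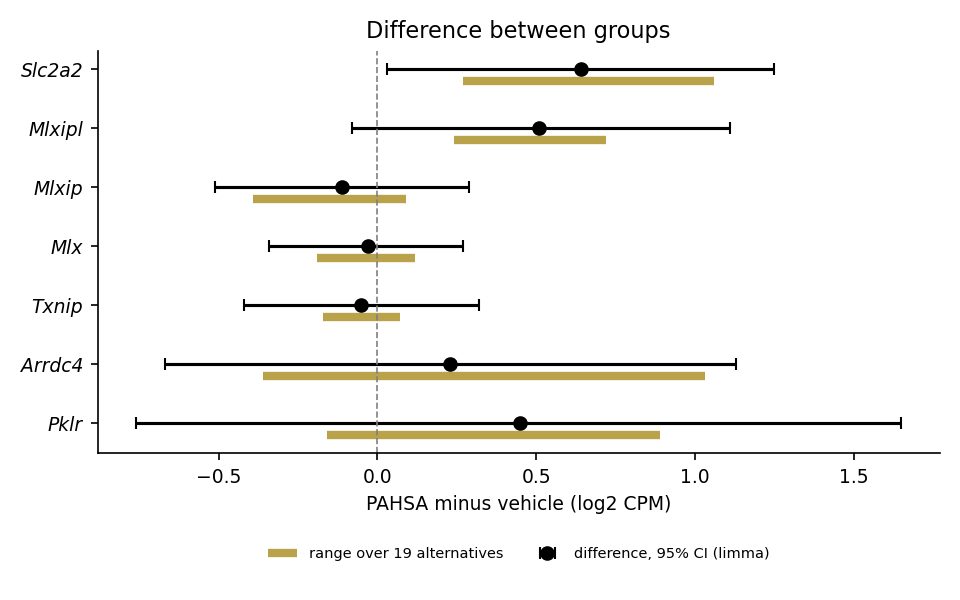
PAHSA minus vehicle in log2 CPM for each gene, with limma's 95% confidence interval as black bars and the range over 19 alternative settings as yellow bars. The interval of Slc2a2, from 0.03 to 1.25, lies just above 0 without adjustment, and those of the other 6 genes include 0.

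The 7 genes differed in how tightly they were held between libraries of a group. The SD within groups was 0.18 log2 for Mlx, 0.22 for Txnip and 0.25 for Mlxip, and 13.3%, 23.5% and 30.0% of all tested genes had a smaller one. It was 0.40 for Mlxipl, 0.49 for Slc2a2, 0.71 for Arrdc4 and 0.92 for Pklr. Since weakly expressed genes vary more, each gene was also set beside the 1000 tested genes nearest to it in mean level. Of those, 98.8% had a smaller SD than Slc2a2, 97.5% a smaller SD than Arrdc4 and 88.6% a smaller SD than Pklr. The corresponding shares were 55.3% for Mlxipl, 34.6% for Mlxip, 32.6% for Txnip and 24.6% for Mlx.

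To compare levels between genes, CPM was divided by the length of all annotated exons of a gene joined. Mlx was the most abundant of the 7 genes on this scale, at 37.1 ± 4.38 CPM per kb in PAHSA and 38 ± 4.5 in vehicle (SD, n = 4 each). Slc2a2 came next at 25.9 ± 8.44 in PAHSA and 16.3 ± 4.93 in vehicle, and Txnip at 15.4 ± 2.23 and 15.9 ± 2.28. In vehicle islets Slc2a2 and Txnip did not differ beyond their spread. Arrdc4 was at 7.11 ± 2.21 CPM per kb in PAHSA and 6.46 ± 3.01 in vehicle. The lowest were Mlxip (4.86 ± 0.851 in PAHSA and 5.23 ± 0.884 in vehicle), Mlxipl (4.70 ± 1.23 and 3.27 ± 0.848) and Pklr (3.84 ± 1.64 and 3.12 ± 2.29), whose ranges over libraries overlapped with each other and with that of Arrdc4. The joined exon length may exceed that of the transcripts present, so this order is approximate.

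Whether the 7 genes varied together was asked over the 8 libraries, for all 21 pairs. No pair passed after adjustment (exact permutation test, smallest adjusted p = 0.32 by Pearson and 0.436 by Spearman). None had an unadjusted p under 0.05 by Pearson and 1, Slc2a2 with Mlxipl, by Spearman (rho = 0.79, exact permutation p = 0.0279, adjusted 0.436; r = 0.70, and 0.42 without the 2 libraries farthest from the median of Slc2a2). The highest Pearson r was that of Mlxipl with its target Pklr, at 0.72 (exact permutation p = 0.0506, adjusted 0.32; rho = 0.67, exact permutation p = 0.0831), with r = 0.46 after the 2 libraries farthest from the median of Mlxipl were left out. Mlxip and Pklr had r = 0.71 (exact permutation p = 0.0563) and rho = 0.71 (exact permutation p = 0.0576), with r = 0.49 without the 2 farthest libraries and 0.83 on values centred on the group means. Slc2a2 and Arrdc4 had r = 0.68 (exact permutation p = 0.0583; rho = 0.67, exact permutation p = 0.0831), and r = 0.56 without the 2 farthest libraries. Mlxip and Mlx went opposite ways, with r = -0.65 (exact permutation p = 0.0971) and rho = -0.48 (exact permutation p = 0.243), and r = -0.93 without the 2 farthest libraries. The alpha-arrestin genes Txnip and Arrdc4 had r = 0.11 (exact permutation p = 0.828, adjusted 0.869) and rho = 0.17 (exact permutation p = 0.703), with r = -0.45 without the 2 farthest libraries. Txnip and Pklr had r = -0.01 (exact permutation p = 0.975) and rho = 0.17 (exact permutation p = 0.703), with r = 0.15 without them. On centred values 3 pairs had an unadjusted p under 0.05 and 0 passed after adjustment.

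**Figure D3:**
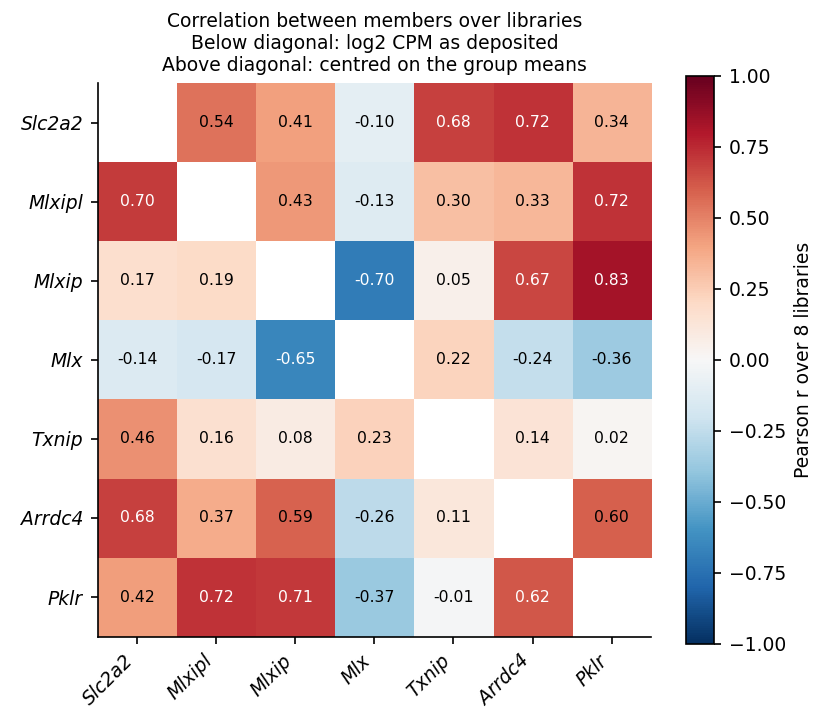
Pearson r of each pair of the 7 genes over 8 libraries, below the diagonal on the deposited log2 CPM and above it on values centred on their group means (red positive, blue negative). Pklr has its highest values with Mlxipl and Mlxip, Mlx is negative or weak with all others, and Txnip with Arrdc4 is 0.11 below and 0.14 above the diagonal.

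Other genes of the pathway were taken from 4 lists, and 0 genes of any list passed the threshold in limma. Of 25 listed glucose-responsive ChREBP targets, 19 were tested, with 11 higher and 8 lower in PAHSA and a median difference of 0.028. At an unadjusted p under 0.05, 2 were higher and 2 lower. On the log2 CPM scale Bhlhe40, a transcriptional repressor, had 5.58, 6.65, 6.46 and 6.30 in PAHSA replicates 1 to 4, against 6.98, 7.03, 6.66 and 6.96 in vehicle replicates 1, 3, 4 and 5. Its groups just failed to overlap, with a difference of -0.66 (SE 0.21). Klf10, a repressor that glucose induces, had log2 CPM of 5.39, 5.78, 5.98 and 5.41 in PAHSA and 6.39, 5.95, 6.51 and 5.96 in vehicle libraries, a difference of -0.56 (SE 0.19). Mid1ip1, an activator of acetyl-CoA carboxylase, went the other way at 0.25 (SE 0.10), with 7.37 to 7.66 log2 CPM in PAHSA and 7.07 to 7.35 in vehicle, again without overlap. Khk, which encodes fructokinase, was chosen after its values were seen and differed by 0.85 (SE 0.36). The remaining tested targets lay between Gpd1, a glycerol phosphate dehydrogenase gene, at -0.35 (SE 0.20) and Elovl6, a fatty acid elongase gene, at 0.35 (SE 0.26), also named after their values were seen. In limma 3.02% of all tested genes were higher and 4.29% lower at an unadjusted p under 0.05. The groups did not overlap in 4.01% of all tested genes, and Bhlhe40 and Mid1ip1 were named for their small p.

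Among 19 listed genes of hexose transport, sugar phosphorylation and pyruvate kinase, 13 were tested, 7 higher and 6 lower, with a median of 0.013. Slc2a1, which encodes the widely expressed transporter GLUT1, had log2 CPM of 5.69, 6.27, 6.11 and 6.72 in PAHSA replicates 1 to 4, against 6.90, 7.23, 6.47 and 6.83 in vehicle replicates 1, 3, 4 and 5. Its difference of -0.66 (SE 0.22, limma adjusted p = 0.671) was opposite in sign to that of Slc2a2. PAHSA replicate 1 was lowest for Slc2a1 and highest for Slc2a2. Vehicle replicate 3 was highest for Slc2a1, at 7.23, and next to lowest for Slc2a2, at 6.19 log2 CPM. Other libraries did not all go opposite ways. PAHSA replicate 4 was the highest PAHSA library for Slc2a1 and the next highest for Slc2a2. Vehicle replicate 4 was the lowest vehicle library for both genes. Pkm, the pyruvate kinase gene expressed in most tissues, differed by -0.25 (SE 0.11), with 10.10 to 10.55 log2 CPM in PAHSA and 10.36 to 10.61 in vehicle. Ppp1r3b, a glycogen-targeting subunit of protein phosphatase 1, differed by -0.86 (SE 0.36). These were the 3 genes of this list with an unadjusted p under 0.05 in limma, and all were lower. At that level 4.29% of all tested genes were lower and 3.02% higher.

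In the MYC-MAX-MLX network, whose proteins share dimer partners with MLX, 7 of 10 listed genes were tested, 4 higher and 3 lower, with a median of 0.035. Mga, a MAX partner, was the 1 gene with an unadjusted p under 0.05 in limma, where 4.29% of all tested genes were lower. It differed by -0.42 (SE 0.17), with 5.27 to 5.75 log2 CPM in PAHSA and 5.67 to 6.20 in vehicle. Myc differed by 0.54 (SE 0.31) and Mxd1, a MAX and MLX partner, by -0.20 (SE 0.22). Of 11 alpha-arrestin and thioredoxin system genes 10 were tested, 5 higher and 5 lower, with a median of -0.031 and 0 at an unadjusted p under 0.05 in limma. Those with the smallest p were Nedd4l, a ubiquitin ligase gene, at -0.32 (SE 0.16), the stress-induced mTORC1 inhibitor Ddit4 at -0.54 (SE 0.29) and the alpha-arrestin Arrdc3 at -0.26 (SE 0.16). Txn1 and Txnrd1, thioredoxin and its reductase, named here for that role after their values were seen, differed by -0.11 (SE 0.14) and 0.16 (SE 0.11).

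**Figure D4:**
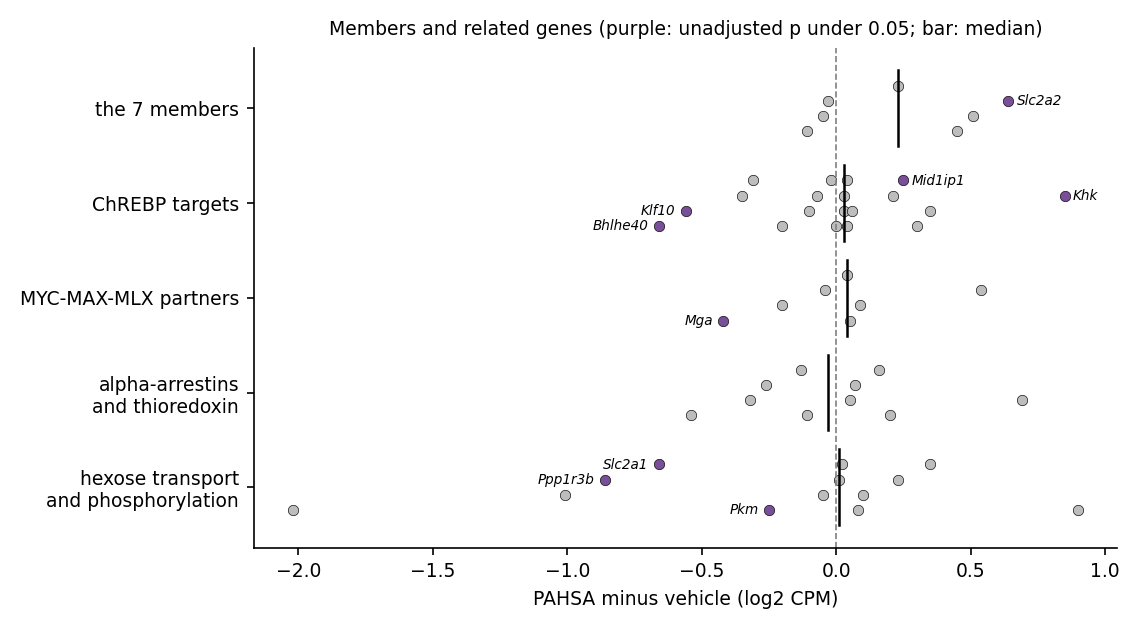
PAHSA minus vehicle in log2 CPM for the 7 members and the tested genes of 4 related lists; each point is a gene, purple points have an unadjusted p under 0.05 in limma and carry their name, and the black bar is the median of the list. Medians lie between -0.031 and 0.035 in the 4 lists and at 0.232, the value of Arrdc4, in the 7 members.

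The genes most like 4 of the members were found by Pearson r over the 8 libraries, among 10185 protein-coding genes with a mean log2 CPM above 2. These values describe 8 libraries, and the highest of so many are high by selection. Slc2a2 was closest to Ppt1, a lysosomal thioesterase gene (r = 0.975), Tubgcp5 (0.967) and the sphingolipid desaturase gene Degs2 (0.965). Mlxipl was closest to the choline kinase gene Chka (0.944), Rangrf (0.944) and the arginine methyltransferase gene Carm1 (0.942). Txnip was closest to Jade3 (0.979), Id3, an inhibitor of helix-loop-helix factors (0.959), and the mannosyltransferase gene Alg1 (0.939). Arrdc4 was closest to Ap3b2, an adaptor complex subunit gene (0.987), the potassium-chloride cotransporter gene Slc12a7 (0.977) and the kinase gene Rps6ka5 (0.965). These r values changed little on centred values, where the lowest was 0.916 for Mlxipl with Carm1.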

How the data were processed

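Islet RNA was sequenced in 4 PAHSA and 4 vehicle libraries. Per the labels' protocols, total RNA was column-purified and libraries were made with Nextera XT, which does not mark strand. The authors deposited log2 CPM for 13725 Ensembl genes with kallisto and limma, as the submitters' processing notes list. Their versions, the genome build and the annotation are not stated there. kallisto estimates counts per transcript, so near-identical sequences are less certain. An added 0.5 counts, read from the lowest values, understates changes of weak genes; 47.8% to 51.5% of recovered counts lay within 0.01 of a whole number, so no count test was run. At most 3 libraries of any gene held the lowest value, so low genes had been removed before deposit.

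Symbols, positions and exon lengths came from GENCODE M21 (GRCm38), with 56 identifiers unmatched. Genes with a mean log2 CPM above 0 were fitted with limma 3.58.1 in R 4.3.3 (lmFit, eBayes with trend, group as the only term), two-sided, with Benjamini-Hochberg adjustment and a threshold of 0.05. The fit was also run on simulated data with independent noise, where changed genes shifted by more than any member's difference. It was not tested on differences of the members' size. Correlations used exact permutation over 40320 pairings. The members, the 4 lists of related genes and the markers were chosen with earlier results of these data known. Besides the members, the text names the 3 genes of each list with the smallest p and, for Slc2a2, Mlxipl, Txnip and Arrdc4, the 3 genes with the highest r. Any other gene of a list is marked where it is named.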

Additional observations from a re-analysis of the deposited data

Results flagged for a closer look

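In 2 members 1 vehicle library stood apart from the other 3. Mlx was at 5.97 log2 CPM in vehicle replicate 3, against 6.31 to 6.36 in the other vehicle libraries, and Txnip was at 5.30 in the same library, against 5.70 to 5.78. Vehicle replicate 4 stood apart in Pkm, at 10.36 log2 CPM against 10.58 to 10.61, and in the sum of the beta cell markers, at 17.46 on the log2 scale against 17.06 to 17.10. By this criterion, the gap to the nearest library over the range of the group, chance picks out about 1 in 20 groups, and 4 of 56 groups examined were picked out.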

How the results depend on the processing

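In limma 0 of the 7 genes, 0 genes of the 4 lists and 0 genes in all passed under each of the 19 alternatives, with a smallest adjusted p between 0.227 and 0.885. Slc2a2 stayed higher in PAHSA in all 19, by 0.27 to 1.06, and Mlxipl by 0.24 to 0.72. The unadjusted p in limma was under 0.05 in only 10 of the 19 for Slc2a2 and in 2 for Mlxipl. The other genes changed sign in at least 1. With the acinar mean as a covariate Mlxip was at -0.39, Mlx at 0.12, Arrdc4 at -0.36 and Pklr at -0.16. With the beta cell mean Mlxip was at 0.09, and with array weights Arrdc4 at -0.03. Leaving out 1 library gave -0.12 to 0.02 for Mlx, -0.16 to 0.04 for Txnip (0.00 without vehicle replicate 4) and -0.17 to 0.49 for Arrdc4; the cause was not tested. Libraries that share a number (3 pairs) did not deviate together from their group means, with correlations over genes of -0.02 in each pair, and none of these libraries correlated best with its own number. With a replicate block over the libraries numbered 1, 3 and 4, Slc2a2 was at 1.06 (SE 0.17, adjusted p = 0.696) and Txnip at 0.07, 747 genes had an unadjusted p under 0.05 and 0 passed. The same libraries without the block, a setting chosen after seeing the data, gave 1.06 for Slc2a2 and 0.07 for Txnip. The block changed no call. Of the 21 correlations 0 passed under any of 11 alternatives. With 4 libraries per group, the confidence intervals of Slc2a2, Mlxipl, Arrdc4 and Pklr reach beyond 2-fold upward, to 2.37, 2.16, 2.19 and 3.15.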

Other observations

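Some members were also set against a gene of like function, as log2 ratios of CPM that are not corrected for length; these pairs were chosen after the values were seen and were not tested. The log2 ratio of Slc2a2 to Slc2a1, the GLUT2 and GLUT1 genes, was 1.87, 0.12, 1.02 and 0.80 in PAHSA replicates 1, 2, 3 and 4, against -0.20, -1.04, -0.35 and 0.19 in vehicle replicates 1, 3, 4 and 5. It averaged 0.95 ± 0.72 in PAHSA and -0.35 ± 0.51 in vehicle (SD, n = 4 each), and only PAHSA replicate 2 and vehicle replicate 5 overlapped. The log2 ratio of Mlxipl to Mlxip, the ChREBP and MondoA genes, was -0.40, -0.42, -1.01 and -0.82 in PAHSA replicates 1, 2, 3 and 4, against -1.36, -1.70, -1.38 and -0.69 in vehicle replicates 1, 3, 4 and 5. Vehicle replicate 5 was the only vehicle library inside the PAHSA range. The ratios of Pklr to Pkm and of Txnip to Arrdc4 overlapped between the groups, at -6.78 ± 0.80 in PAHSA and -7.48 ± 0.95 in vehicle for Pklr to Pkm, and at 0.80 ± 0.37 in PAHSA and 1.08 ± 0.93 in vehicle for Txnip to Arrdc4 (SD, n = 4 each).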
